A study of Mus musculus with 16 samples.

Results

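Lymphocytes travel between bone marrow, lymph nodes, spleen and blood by reading chemical gradients with surface receptors. This report describes 8 genes of that system: the chemokine receptor genes Ccr7, Cxcr4, Cxcr5, Ccr6 and Ccr9, the sphingosine 1-phosphate receptor gene S1pr1, the adhesion receptor gene Cd44, and Klf2, which encodes a Krüppel-like transcription factor. They are 8 of the 50686 gene identifiers in the count files. The genes were chosen by name, with Ccr7 selected on its Senexin B minus DMSO difference in these same libraries (higher with this inhibitor), so the Senexin B values of Ccr7 are given as a description without a test.

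RNA was sequenced from BCR-ABL1p185+ mouse cell lines, B-lymphoid leukemic lines obtained by transforming C57BL/6N bone marrow cells with the BCR-ABL1 p185 oncogene. All 8 lines carried the oncogene, each line was derived individually, 4 were labelled wild-type and 4 Cdk8-ko, here called Cdk8 Δ/Δ. In the study's description the floxed Cdk8 gene is deleted by Vav-Cre, a recombinase active in blood-forming cells, and the controls are Cdk8 fl/fl. CDK8 is a kinase of the Mediator complex, which links transcription factors to RNA polymerase II, and Senexin B is a small-molecule inhibitor of CDK8 and its paralog CDK19. Each line was cultured for 48 h with DMSO, the solvent, and with 1 µM Senexin B, so that 16 libraries formed 4 groups of 4. Libraries of a genotype that share a replicate number were read as the same line. For these lines, the age and sex of the marrow donors are not stated in the labels.

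Chemokine receptors couple to Gi proteins and steer a cell toward their ligand. CCR7 reads CCL19 and CCL21 and leads lymphocytes and dendritic cells into lymph nodes, CXCR5 reads CXCL13 and leads B cells into follicles, and CXCR4 reads CXCL12 and holds B-cell progenitors in the bone marrow. S1PR1 works in the opposite sense and guides lymphocytes out of tissues into blood or lymph, CD44 binds hyaluronan in the extracellular matrix, and KLF2 is known in T cells as an activator of S1pr1.

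Between 13145876 and 18349425 reads were counted on genes per library. Values are given as counts scaled to library size (CPM) after TMM normalization. Gene-level Cdk8 RNA was 61.8 to 68.7 CPM in the 4 wild-type DMSO libraries and 35.3 to 52.1 CPM in the 4 Cdk8 Δ/Δ DMSO libraries, which did not overlap. With Senexin B the ranges overlapped, at 55.2 to 89.4 CPM and 41.2 to 61.7 CPM. These counts cover the whole gene and do not show which exons were lost. All 9 B-lineage markers (among them Pax5, Ebf1 and Igll1) had at least 10 counts in every library and summed to between 4685 and 7266 CPM, while 6 T-cell markers summed to at most 1.87 CPM, 6 erythroid markers to at most 1.72 CPM, 6 dendritic cell markers to at most 6.49 CPM, 6 myeloid markers to at most 24.8 CPM and 4 NK-cell markers to at most 81.6 CPM. The highest NK value was almost all Klrb1c (81.4 CPM), and Ncr1 was at 0 counts in every library. The 5 mature B-cell markers summed to between 46.2 and 269 CPM. Of these, Cd22 (mean 127 CPM), Ighd (22.8) and Cr2 (15.7) had at least 33 counts in every library, while Fcer2a and Ms4a1 had at most 4 and 39.

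In CPM per kb of gene model, the scale on which genes can be compared, Cxcr4 was the most abundant of the 8 genes in 16 of 16 libraries, with a mean of 193 CPM per kb. Cd44 followed with a mean of 24.4 CPM per kb and was second in 12 libraries. Klf2 and Ccr7 came next at means of 14.1 and 13.9 CPM per kb, a difference far within their spread, since Klf2 ranged from 5.21 to 31.9 and Ccr7 from 1.73 to 54.3 CPM per kb. The Ccr7 mean includes the Senexin B libraries, where it is higher by choice. In wild-type DMSO libraries Ccr7, Klf2 and S1pr1 averaged 3.63, 12.9 and 9.24 CPM per kb. In Cdk8 Δ/Δ DMSO libraries they averaged 7.96, 13.9 and 6.50. S1pr1 and Cxcr5 averaged 6.32 and 4.29 CPM per kb and also overlapped over most of their ranges. Ccr6 and Ccr9 were close to absent, with 0 to 18 and 0 to 12 counts per library. They did not pass the filter on low counts in any comparison, so 6 of the 8 genes were tested.

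**Figure D1:**
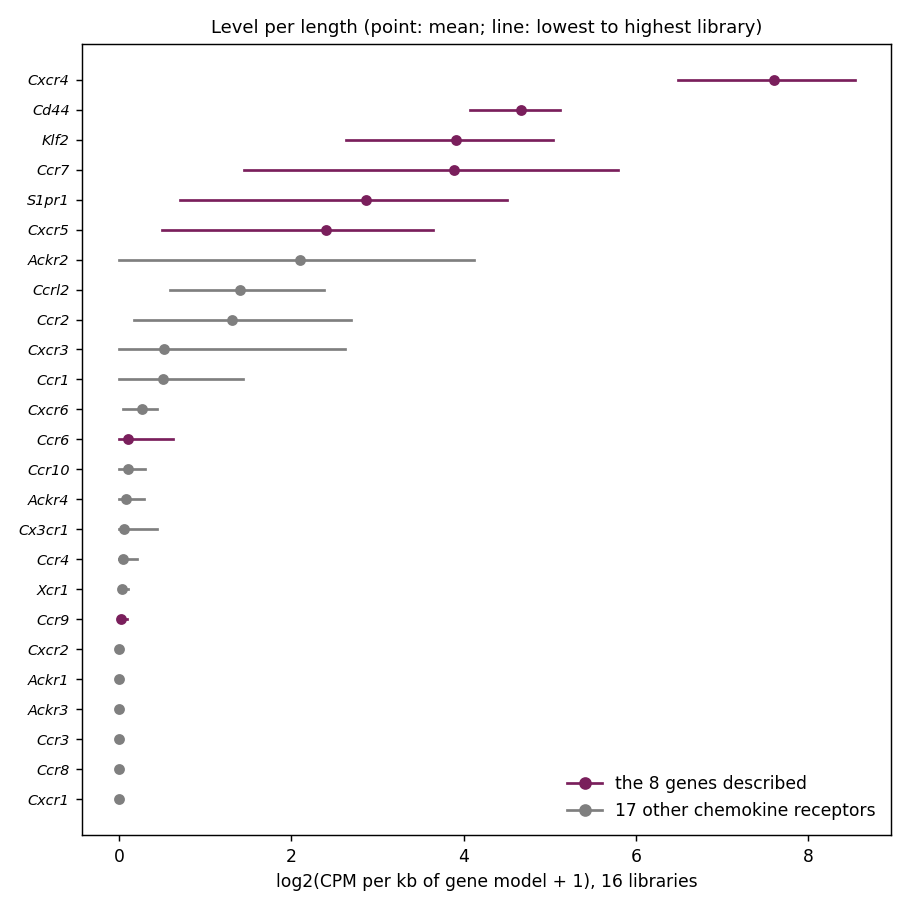
Level of the 8 genes (purple) and of 17 other chemokine receptor genes (grey) as log2(CPM per kb + 1), with the mean of 16 libraries as a point and the lowest to highest library as a line. Cxcr4 lies above all others at a mean of 193 CPM per kb, and Ccr6 and Ccr9 lie among the receptors at or near 0.

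The genes also differed in how far they varied from library to library, line and treatment together. The standard deviation of log2(CPM + 1) over the 16 libraries was 1.41 for Cxcr5, 1.39 for S1pr1 and 1.38 for Ccr7, and only 3.14%, 3.34% and 3.40% of the 14164 genes that passed the filter varied more. Cd44 was the steady member, with a standard deviation of 0.32 against a median of 0.33 over all genes and a 2.13-fold distance from its lowest to its highest library. Klf2 (0.74) and Cxcr4 (0.55) lay between them. The lowest and highest libraries of S1pr1 were 34.5-fold apart, and those of Ccr7 31.3-fold. The values of Ccr7 include the Senexin B change for which it was chosen, and in wild-type DMSO lines it ran only from 4.05 to 9.59 CPM.

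Ccr7 (ENSMUSG00000037944, GRCm38 chromosome 11, 99144196 to 99155077, minus strand) was higher with Senexin B in 8 of 8 lines. In wild-type lines 1 to 4, Ccr7 RNA was 4.05, 9.0, 6.11 and 9.59 CPM in DMSO and 17.0, 27.7, 31.1 and 77.9 CPM with Senexin B. The 2 groups of wild-type libraries did not overlap, which is a description only, since Ccr7 was chosen for this rise. The within-line folds were 4.20, 3.08, 5.09 and 8.12. In Cdk8 Δ/Δ lines 1 to 4, the values were 3.43, 9.71, 36.1 and 13.7 CPM in DMSO and 9.20, 14.4, 107 and 62.7 CPM with Senexin B, folds of 2.68, 1.48, 2.97 and 4.58. Here the groups overlapped, because line 3 stood at 36.1 CPM in DMSO, above 2 of the 4 Cdk8 Δ/Δ Senexin B libraries and 3 of the 4 wild-type Senexin B libraries. The order of the 4 Cdk8 Δ/Δ lines was the same in both media, line 3 being highest and line 1 lowest.

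With the line as a block, the fitted log2 change of Ccr7 was 2.28 in wild-type lines, 1.46 in Cdk8 Δ/Δ lines and 1.86 over all 8 lines. As background, 1.96% of 14164 genes were higher with Senexin B in 8 of 8 lines. This share is no test of Ccr7, which was chosen for its rise. With the block, edgeR called 0.346% of 12989 genes in wild-type lines, 0.0527% of 13285 genes in Cdk8 Δ/Δ lines and 0.946% of 14164 genes over both genotypes at a fold change over 2 and an adjusted p under 0.05. Of the other members, 0 were called in any of the 3. Without the block, edgeR called 0% of the genes in each of these 3 comparisons, with 493, 243 and 688 genes at an unadjusted p under 0.05. DESeq2 without the block called 18, 0 and 16 genes. Since Ccr7 was chosen for this change, no call is given for it. In bulk RNA, a larger share of Ccr7-expressing cells and more Ccr7 RNA per cell cannot be told apart. Markers of T cells and dendritic cells, which also use CCR7, ranged with Senexin B from 0.115 to 1.87 CPM and from 0.546 to 4.77 CPM in sum, and in DMSO from 0.125 to 0.490 CPM and from 0.663 to 6.49 CPM. Cd3g was at 0 counts in every library, while Trac, another T-cell marker, reached 31 counts (1.66 CPM) in a wild-type Senexin B library. The NK-cell markers summed to 1.23 to 6.36 CPM in DMSO and 0.216 to 6.06 CPM with Senexin B in wild-type lines, and to 0.626 to 20.6 CPM and 0.413 to 81.6 CPM in Cdk8 Δ/Δ lines. Their part in the Ccr7 values was not tested.

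**Figure D2:**
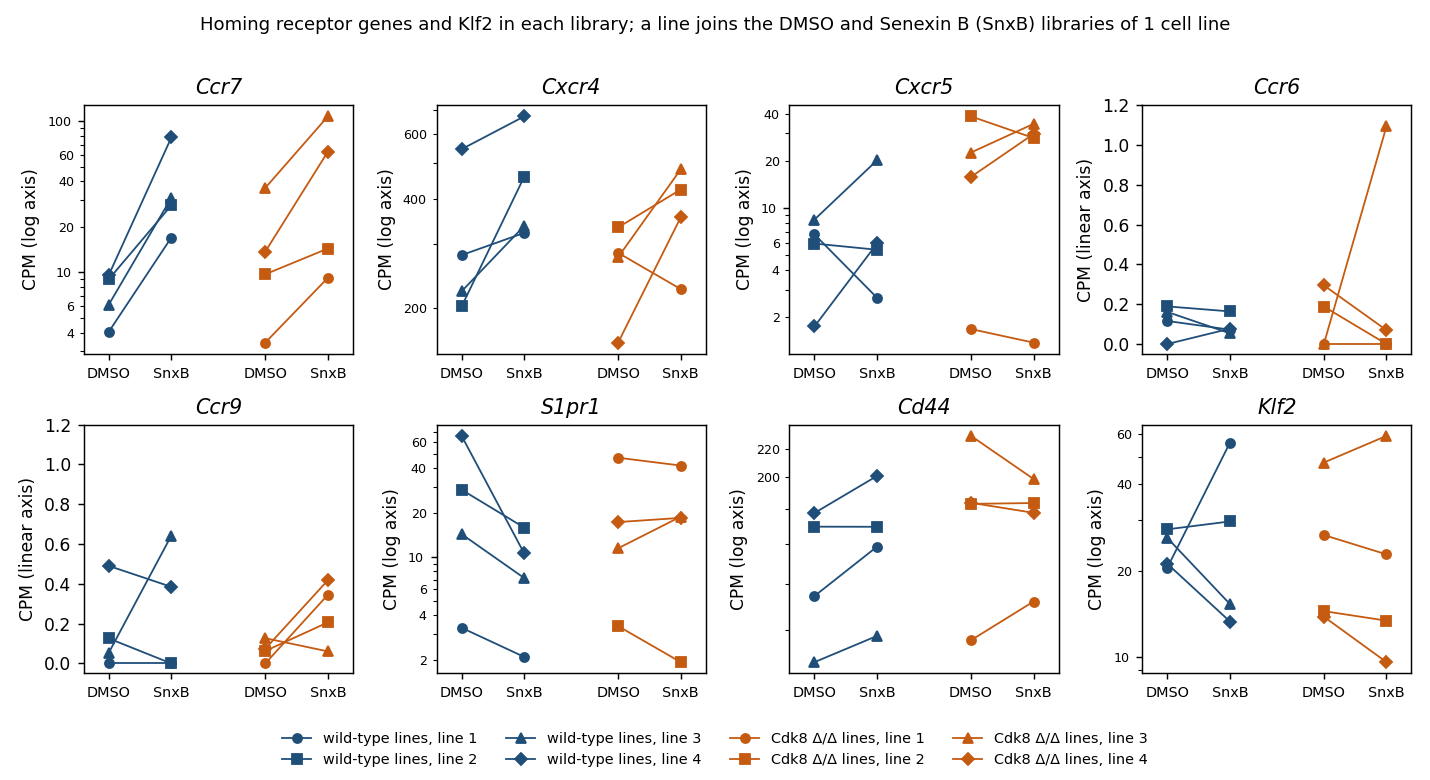
CPM of the 8 genes in each of the 16 libraries, with both libraries of a line joined (blue, wild-type; orange, Cdk8 Δ/Δ; log axes except for Ccr6 and Ccr9). Ccr7 rises along all 8 lines, and S1pr1 falls along the 4 wild-type lines. Cxcr4 rises along 4 of 4 wild-type and 3 of 4 Cdk8 Δ/Δ lines, and the other genes show no direction common to all lines.

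Cxcr4 (ENSMUSG00000045382, chromosome 1, 128588199 to 128592293, minus strand) was higher with Senexin B in 4 of 4 wild-type and 3 of 4 Cdk8 Δ/Δ lines. In wild-type lines 1 to 4 it stood at 280, 202, 223 and 547 CPM in DMSO and at 322, 459, 337 and 673 CPM with Senexin B. In Cdk8 Δ/Δ lines 1 to 4 it stood at 284, 334, 276 and 161 CPM in DMSO and at 226, 424, 481 and 355 CPM with Senexin B, line 1 being the exception that was lower. The DMSO and Senexin B ranges overlapped in both genotypes. For comparison, 8.38% of genes were higher in 4 of 4 wild-type lines and 8.89% in 4 of 4 Cdk8 Δ/Δ lines. Over both genotypes the log2 change of Cxcr4 was 0.51 (SE 0.24, adjusted p = 1.00, edgeR quasi-likelihood). With the line as a block it was 0.53 (SE 0.15, adjusted p = 0.0997), and DESeq2 with the block gave 0.53 with an adjusted p of 0.0200, under a fold change of 2.

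S1pr1 (ENSMUSG00000045092, chromosome 3, 115710433 to 115715072, minus strand) was the member with a lower level in every wild-type line. In wild-type lines 1 to 4, S1pr1 RNA was 3.29, 28.6, 14.3 and 66.4 CPM in DMSO and 2.09, 15.8, 7.17 and 10.5 CPM with Senexin B. Line 4 fell furthest, 6.30-fold, and the other lines were 1.58-fold, 1.81-fold and 1.99-fold lower. The ranges of the 2 groups overlapped, and line 1 was lowest in both media. Of all genes tested, 9.46% were lower in 4 of 4 wild-type lines.

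The call for S1pr1 in wild-type lines depended on the fit. Without the block the log2 change was -1.65 (SE 0.86, adjusted p = 0.9998, edgeR). With the line as a block it was -1.31 (SE 0.33, adjusted p = 0.207, edgeR), and without line 4 it was -0.85 in the same fit. DESeq2 with the block called it at a log2 change of -1.30 (adjusted p = 0.00916), and edgeR with the block called it when line 1 was left out, at -1.50 (adjusted p = 0.0171). Leaving out wild-type line 1 raised the number of all genes called in that fit from 45 to 538, and the Senexin B library of this line also held the highest Cdk8 value of all libraries, 89.4 CPM. The DMSO library of line 1 was the 1 file whose header names another annotation folder than the other 15. Without that library alone, and with no block, the log2 change of S1pr1 was -2.03 (adjusted p = 0.913, edgeR). The part of the file difference in these results was not tested.

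In Cdk8 Δ/Δ lines S1pr1 showed no common direction. As background, 10.3% of genes were lower in 4 of 4 Cdk8 Δ/Δ lines, and none of the members was. Lines 1 to 4 stood at 47.2, 3.38, 11.4 and 17.2 CPM in DMSO and at 41.7, 1.93, 18.8 and 18.4 CPM with Senexin B, lower in lines 1 and 2 and higher in lines 3 and 4. Without the block the log2 change was 0.03 (SE 0.93, adjusted p = 1.00, edgeR). With the line as a block it was also 0.03 (SE 0.22, adjusted p = 0.972, edgeR). The difference between the genotypes in the Senexin B effect, tested as an interaction over 16 libraries, was 1.69 on the log2 scale for S1pr1 (SE 1.36, adjusted p = 1.00, edgeR) and 1.36 with the line as a block (SE 0.45, unadjusted p = 0.0121, adjusted p = 0.991, edgeR). It did not pass the test. For the interaction edgeR called 0% of 14164 genes with or without the block, and 0 members, with 67 and 459 genes at an unadjusted p under 0.05.

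**Figure D3:**
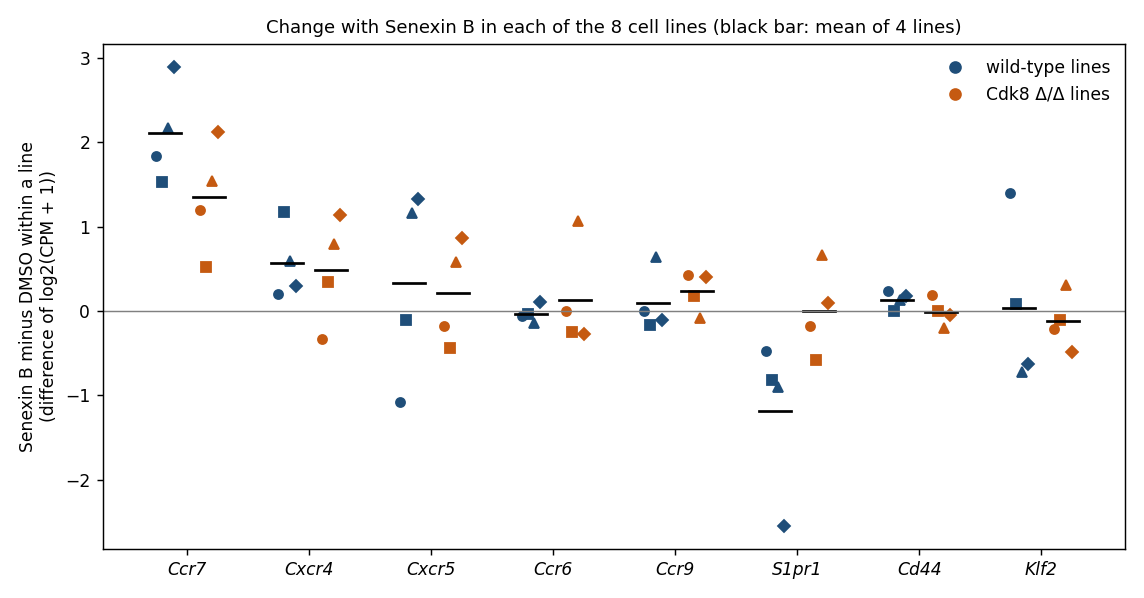
Senexin B minus DMSO within each line, as the difference of log2(CPM + 1), for the 8 genes (blue, 4 wild-type lines; orange, 4 Cdk8 Δ/Δ lines; black bar, mean of 4). Ccr7 is above 0 in 8 of 8 lines, and Cxcr4 in 4 of 4 wild-type and 3 of 4 Cdk8 Δ/Δ lines. S1pr1 is below 0 in 4 of 4 wild-type lines and on either side of 0 in Cdk8 Δ/Δ lines.

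Klf2 (ENSMUSG00000055148, chromosome 8, 72319033 to 72321656, plus strand) showed no direction common to the lines of either genotype. In wild-type lines 1 to 4 Klf2 RNA was 20.5, 27.9, 26.0 and 21.1 CPM in DMSO and 55.9, 29.7, 15.3 and 13.3 CPM with Senexin B. Line 1 was 2.72-fold higher while lines 3 and 4 were 1.70-fold and 1.59-fold lower, so that the narrow DMSO range widened in both directions. In Cdk8 Δ/Δ lines 1 to 4 it was 26.6, 14.5, 47.6 and 13.8 CPM in DMSO and 22.8, 13.4, 59.0 and 9.62 CPM with Senexin B, higher in line 3 and lower in the other 3. Without the block the fitted log2 change was 0.27 (SE 0.43, adjusted p = 0.9998) in wild-type and 0.03 (SE 0.64, adjusted p = 1.00) in Cdk8 Δ/Δ lines by edgeR. With the line as a block it was 0.03 (SE 0.36, adjusted p = 0.985) and -0.12 (SE 0.15, adjusted p = 0.820) by edgeR. Its sign turned with the block in Cdk8 Δ/Δ lines (-0.12) and without the Senexin B library of line 1 in wild-type lines (-0.30).

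Cxcr5 (ENSMUSG00000047880, chromosome 9, 44511787 to 44561877, minus strand) moved both ways with Senexin B. In wild-type lines 1 to 4 it was 6.76, 5.92, 8.42 and 1.75 CPM in DMSO and 2.66, 5.40, 20.1 and 5.93 CPM with Senexin B, lower in lines 1 and 2 and higher in lines 3 and 4. In Cdk8 Δ/Δ lines 1 to 4 it went from 1.68, 38.3, 22.5 and 15.8 CPM in DMSO to 1.38, 27.9, 34.4 and 29.6 CPM, lower in lines 1 and 2. A number names different lines in the 2 genotypes, so this is no shared pattern. Some falls were small: wild-type line 2 was 1.10-fold lower, and Cdk8 Δ/Δ line 1 went from 27 to 24 counts. Without the block the log2 changes were 0.59 (SE 0.67) and 0.25 (SE 1.00), with adjusted p of 0.9998 and 1.00 from edgeR. With the line as a block they were 0.41 (SE 0.49) and 0.26 (SE 0.25), with adjusted p of 0.842 and 0.754 from edgeR. Exons of Cxcr5 share 110 bases with Bcl9l on the opposite strand, and the counting did not use strand.

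Cd44 (ENSMUSG00000005087, chromosome 2, 102811141 to 102901665, minus strand) was the member least moved by the inhibitor. Its values in wild-type lines 1 to 4 were 135, 170, 108 and 178 CPM in DMSO and 159, 170, 118 and 201 CPM with Senexin B. In Cdk8 Δ/Δ lines 1 to 4 they were 116, 183, 230 and 184 CPM and then 132, 184, 199 and 178 CPM. No line changed by more than 1.18-fold. Over both genotypes and without the block the log2 change was 0.05 (SE 0.15, adjusted p = 1.00, edgeR). With the line as a block it was 0.15 (SE 0.14, adjusted p = 0.787) in wild-type and -0.02 (SE 0.10, adjusted p = 0.971) in Cdk8 Δ/Δ lines by edgeR.

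Ccr6 (ENSMUSG00000040899, chromosome 17, 8236043 to 8257127, plus strand), the receptor for CCL20, had a total of 39 counts in 16 libraries, of which 18 fell in the Senexin B library of Cdk8 Δ/Δ line 3 (1.09 CPM). Ccr9 (ENSMUSG00000029530, chromosome 9, 123678439 to 123784330, plus strand), the receptor for the thymic and intestinal chemokine CCL25, had 47 counts in all and at most 0.642 CPM. Its exons share bases with 3 other annotated genes. Most libraries held 3 or fewer counts of either gene, so a difference was not detectable at this depth.

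The genotype comparison asked whether loss of Cdk8 alone goes with another level of these genes. None of the 6 tested members was called between Cdk8 Δ/Δ and wild-type lines, in DMSO or with Senexin B, and for 0 of the 8 genes did the 2 genotypes fail to overlap in either medium. Over all genes, edgeR called 0.00759% of 13174 genes in DMSO, which is 1 gene, and 0% of 13010 with Senexin B, with 701 and 202 genes at an unadjusted p under 0.05. DESeq2 called 21 and 3. The groups did not overlap for 3.14% of genes in DMSO and for 0.999% with Senexin B.

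Ccr7 averaged 7.19 ± 2.59 CPM (SD, n = 4) in wild-type DMSO and 15.7 ± 14.2 CPM in Cdk8 Δ/Δ DMSO, a log2 fold change of 1.13 (SE 0.65, adjusted p = 0.908, edgeR). Without Cdk8 Δ/Δ line 3 it was 0.32. With Senexin B the means were 38.4 ± 27.0 and 48.4 ± 46.1 CPM, a log2 fold change of 0.34 (SE 0.79, adjusted p = 0.9997, edgeR). The SD between Cdk8 Δ/Δ lines exceeded the difference of the means in both media.

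The widest distance between the genotypes was that of Cxcr5, with 5.71 ± 2.84 CPM in wild-type and 19.6 ± 15.2 CPM in Cdk8 Δ/Δ lines in DMSO. Lines 2 to 4 of Cdk8 Δ/Δ were above every wild-type line. Line 1, at 1.68 CPM (27 counts), was level with the lowest wild-type line, at 1.75 CPM (25 counts). The log2 fold change was 1.78 (SE 0.81, unadjusted p = 0.0592, adjusted p = 0.897, edgeR) in DMSO and 1.44 (SE 0.90, adjusted p = 0.9997) with Senexin B, and 2.33 (adjusted p = 0.9998) without the Senexin B library of wild-type line 3. S1pr1 was 28.1 ± 27.5 against 19.8 ± 19.1 CPM in DMSO and 8.90 ± 5.76 against 20.2 ± 16.4 CPM with Senexin B, log2 fold changes of -0.51 (SE 0.94) and 1.19 (SE 0.84). The adjusted p-values of S1pr1 from edgeR were 0.959 and 0.9997. Cxcr4, Cd44 and Klf2 had log2 fold changes between -0.27 and 0.28 in both media, with adjusted p from 0.913 to 0.9997 by edgeR.

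**Figure D4:**
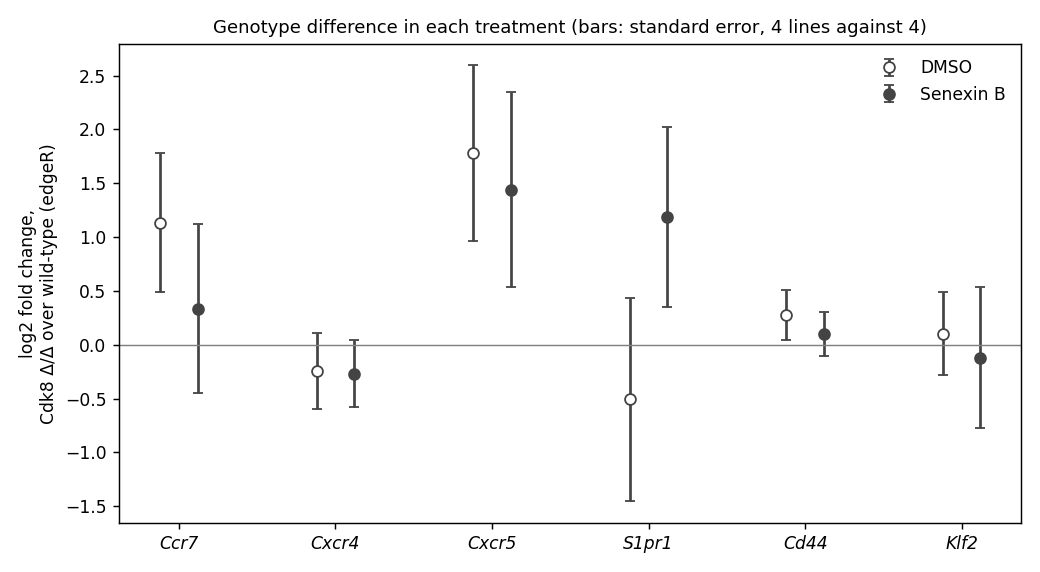
Fitted log2 fold change of Cdk8 Δ/Δ over wild-type lines for the 6 tested genes in DMSO (open points) and with Senexin B (filled points), with the standard error (4 lines against 4). Cxcr5 is farthest from 0, at 1.78 and 1.44, and S1pr1 lies on either side of 0 in the 2 media.

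Of the chemokine ligands that these receptors read, the lines expressed little. Ccl19, Ccl20, Ccl21a and Cxcl13 had 0 counts in every library and Cxcl12 had at most 3, while Ccl25 had 88 to 319 counts (mean 11.5 CPM). Ccl25, the ligand of CCR9, was the 1 ligand of 6 that was tested, and it was not called in any comparison.

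Of 17 other chemokine receptor genes, 12 had counts and at most 4 passed the filter. The highest means per kb were those of the decoy receptor gene Ackr2 (3.30 CPM per kb), then Ccrl2 (1.64), Ccr2 (1.48) and Cxcr3 (0.433), all below the mean of Cxcr5. Ackr2 and Cxcr3 were uneven. Ackr2 ran from 0 to 625 counts per library, and 1 library held 143 of the 194 Cxcr3 counts. Ccrl2 and Ccr2 had at least 21 and 14 counts in every library. With the line as a block, Ccr2, a receptor that draws monocytes to CCL2, rose over both genotypes by 1.83 on the log2 scale (SE 0.35, adjusted p = 0.0209, edgeR). Ccr2 RNA in wild-type lines 1 to 4 was 1.21, 9.82, 1.45 and 6.16 CPM in DMSO and 2.45, 24.5, 11.6 and 33.6 CPM with Senexin B. In Cdk8 Δ/Δ lines 1 to 4 it was 4.74, 2.82, 0.889 and 3.98 CPM and then 14.1, 1.99, 3.70 and 36.9 CPM, higher in 3 of 4. This was 1 called gene of 4 tested, against 0.946% of all genes, and 0 of these receptors were called by genotype. The median log2 change of the 4 was 0.20, beside -0.0048 over all genes. Beside it, the summed myeloid markers were 0.441 to 24.8 CPM in DMSO and 0.576 to 7.93 CPM with Senexin B, almost all of the highest value being Lyz2, while Elane was at 0 counts in every library. Their part in the result was not tested.

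Of 11 other adhesion and homing genes, 7 were tested over both genotypes. Selplg (80.7 CPM per kb), which encodes the selectin ligand PSGL-1, and the integrin genes Itga4 (32.0), Itgb1 (27.2) and Itgb2 (26.7) were the most abundant. None of the 7 was called in any comparison, with or without the block. Over both genotypes with the block, the median log2 change of the 7 genes was -0.19.

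Of 10 genes of sphingosine 1-phosphate receptors and metabolism, 8 were tested over both genotypes and 0 were called, with or without the block. Cd69, whose product binds S1PR1 and removes it from the surface, was the most abundant at 43.8 CPM per kb, followed by the phosphatase gene Sgpp1 (15.6), the receptor gene S1pr4 (14.2) and the kinase gene Sphk2 (9.0). S1pr4 thus exceeded the mean of S1pr1 on this scale, while S1pr5 had at most 1 count in a library. The median log2 change with the block was 0.02 over both genotypes. It was -0.17 in wild-type lines, where 5 of 7 were lower, and 0.14 in Cdk8 Δ/Δ lines, where 6 of 8 were higher. All-gene medians were 0.0050 and -0.0059. For the interaction 7 of 8 were above 0 (median 0.35), and 0 were called.

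Of 33 genes of receptor signalling and desensitization, 31 were tested, and Rgs10 was the 1 gene called. RGS10 shortens Gi signalling by speeding GTP hydrolysis. Rgs10 rose over both genotypes with the block by 1.35 on the log2 scale (SE 0.20, adjusted p = 0.00769, edgeR), 1 of 31 beside the 0.946% of all genes. It stood at 3.12, 4.15, 8.47 and 4.27 CPM in wild-type lines 1 to 4 in DMSO and at 3.89, 15.7, 30.7 and 17.3 CPM with Senexin B. In Cdk8 Δ/Δ lines the values went from 4.37, 3.51, 6.67 and 2.72 CPM to 6.03, 8.53, 14.4 and 8.57 CPM, higher in 8 of 8 lines in all. The median log2 change of the 31 genes was -0.03. The most abundant were the GTPase gene Rac2 (435 CPM per kb), the receptor kinase gene Grk2 (186) and the G-protein genes Gnai2 (137) and Gnb1 (120), none of which was called. Of 22 Krüppel-like factors and regulators, all 22 were tested and 0 were called in any comparison, with a median log2 change of -0.02 over both genotypes with the block. Within wild-type lines the median Senexin B change with the block was -0.14, with 14 of 22 lower. Within Cdk8 Δ/Δ lines it was 0.19, with 19 of 22 higher, beside all-gene medians of 0.0050 and -0.0059. For the interaction, which compares these same changes, the median was 0.25, with 18 of 22 above 0. Between genotypes without the block, the median was -0.25 in DMSO (17 of 22 lower) and -0.034 with Senexin B (12 of 22 lower). Mef2d (124 CPM per kb), Irf4 (92.8), Foxo1 (61.6) and Foxp1 (60.9) were the most abundant, all above the mean of Klf2. Without the block 0 genes of any of the 6 lists were called in the 6 comparisons.

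Among the 14163 other genes that passed the filter, the 5 most like Ccr7 in log2(CPM + 1) over the 16 libraries were Smad7 (Pearson r = 0.886), Gm5070 (0.876), Cables1 (0.863), Ifngr2 (0.858) and Ms4a6c (0.854). Smad7 encodes an inhibitor of TGF-β signalling and ranged from 23.8 to 66.6 CPM, and Ifngr2 encodes a chain of the interferon-γ receptor and ranged from 84.3 to 186 CPM. Gm5070 and Ms4a6c never exceeded 5.71 and 7.71 CPM. These correlations are descriptions over libraries that come in pairs from 8 lines and share the Senexin B contrast. Of the members, Cd44 (0.60), Cxcr4 (0.54) and Cxcr5 (0.49) were nearer to Ccr7 than Klf2 (0.06) and S1pr1 (-0.07).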

How the data were processed

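Single-end reads were trimmed (Trimmomatic), mapped (STAR) and assigned to genes of GENCODE M13 (GRCm38) by featureCounts 1.5.1 without a strand option, and the authors deposited the raw counts, with no normalization (tools per the labels and file headers). The annotation was read from a folder called modified in 15 of 16 file headers, the exception being the wild-type DMSO library of line 1. Gene models were identical in all files, and 310 of the 50686 identifiers had no symbol. Here counts were normalized by TMM and tested with edgeR 4.0.16 in R 4.3.3 (filterByExpr, robust quasi-likelihood test, Benjamini-Hochberg adjustment over all genes tested). Each fit used the 8 libraries compared, or all 16 for both genotypes and the interaction. Calls needed an absolute log2 fold change over 1 with an adjusted p under 0.05. Standard errors were derived from the fold change and the F statistic, so they include the spread between libraries. Without the block, those of the Senexin B changes also include the spread between lines. The floor of 3 counts, at or below which no within-line fold was computed, covers counting error only.

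The line was used as a block in an alternative. Over 14164 genes, deviations from the group mean correlated in same-numbered DMSO and Senexin B libraries. Their r ran from 0.559 to 0.781 in wild-type and from 0.765 to 0.872 in Cdk8 Δ/Δ lines, above 0.1 in every pair. Libraries with different numbers averaged -0.23 and -0.27, with highest values of -0.11 and 0.21. Centring on the group mean pushes these averages below 0, so they are no independent contrast. The pairing comes from the replicate numbers of the labels. Other alternatives were DESeq2 1.42.0, RLE size factors, no filter, at least 10 counts in all libraries fitted, calls at an adjusted p under 0.1, no fold limit, all 16 libraries in one fit and each library left out. The fit of all 16 libraries with the block and DESeq2 with the block were added after seeing the data. The members and lists were chosen with earlier results of these data known. Some list genes are not reported here, and the counts, sums and medians of the lists leave them out. Named are the 8 members, Cdk8, list genes called in any comparison, up to 4 per list with the highest CPM per kb, and the 5 genes most correlated with Ccr7. In simulated data with 200 genes changed by 2 on the log2 scale, edgeR called 59.5% of them for genotype in DMSO (12800 genes, 4 false calls) and 93% for Senexin B in wild-type lines with the block (12710 genes, 8 false calls). The changed genes were drawn at random from all genes, so these rates do not measure the power for single members. Cxcr5, S1pr1 and Ccr7 varied more than most genes, and smaller changes were not simulated. All 120 pairs of libraries were compared, and no pair was a copy (mean chi-square per gene of at least 21.0). No promoter or protein sequence was used here. Figures were drawn with matplotlib 3.10.9.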

Additional observations from a re-analysis of the deposited data

Results flagged for a closer look

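Ccr6 in the Cdk8 Δ/Δ Senexin B group was flagged because 1 sample lay far from the others: line 3 held 1.09 CPM (18 counts) and the next library 0.0697 CPM, a gap of 0.936 of the group's whole range. The same line had 0 counts of Ccr6 in DMSO. Of the 29 groups tested this was the only one past Dixon's limit for 4 samples, and chance flags about 1 in 20 groups.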

How the results depend on the processing

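No member was called between genotypes or for the interaction under any alternative run. With Senexin B, members other than Ccr7 were counted, since Ccr7 was chosen on that contrast. In wild-type lines the count was 0 in the reported fit and 1 (S1pr1) with DESeq2 and the replicate block, and it ran from 0 to 1 when lines or libraries were left out. In Cdk8 Δ/Δ lines and over both genotypes it was 0 under every alternative. Over all genes the block moved the calls from 0 to 45, 7 and 134, leaving out a line under the block gave 0 to 538 in wild-type and 0 to 31 in Cdk8 Δ/Δ lines, and leaving out any library lost the 1 gene called by genotype in DMSO. DESeq2 moved the 1 genotype call in DMSO to 21 and called 3 genes by genotype with Senexin B and 18, 0 and 16 genes with Senexin B (wild-type, Cdk8 Δ/Δ, both), which with the block became 177, 77 and 190. All 16 libraries with the block gave 85 in wild-type lines. The cause was not tested. The members' called or uncalled state is limited by 4 lines per genotype and, for Ccr6 and Ccr9, by depth.

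The replicate block reversed the log2 value of Klf2 by genotype in DMSO (-0.072), in Cdk8 Δ/Δ lines with Senexin B (-0.12; all 16 libraries with the block -0.13; DESeq2 with the block -0.12) and over both genotypes (-0.053; DESeq2 with the block -0.060), and that of Ccr7 by genotype with Senexin B (-0.13). Beyond the counts above it changed no call of a member other than Ccr7. Same-numbered libraries of the 2 genotypes did not deviate together (mean r of 0.01 in DMSO and 0.12 with Senexin B), so there the block pairs only numbers.

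Leaving out single libraries or lines moved these log2 values across 0. By genotype in DMSO, Cxcr4 ran from -0.42 to 0.16, Klf2 from -0.38 to 0.31 and S1pr1 from -1.39 to 0.36. By genotype with Senexin B, Ccr7 ran from -0.42 to 0.93, Cd44 from -0.017 to 0.22 and Klf2 from -0.90 to 0.43. With Senexin B in wild-type lines, Cxcr5 ran from -0.29 to 0.93 and Klf2 from -0.44 to 0.49. In Cdk8 Δ/Δ lines, Cd44 ran from -0.20 to 0.11, Cxcr5 from -0.13 to 0.81, Klf2 from -0.75 to 0.53 and S1pr1 from -0.61 to 0.92. Over both genotypes, Cd44 ran from -0.022 to 0.13 and Klf2 from -0.20 to 0.38. For the interaction, Ccr7 ran from -1.55 to 0.024, Cxcr4 from -0.44 to 0.24, Cxcr5 from -0.71 to 0.55 and Klf2 from -1.0 to 0.33. S1pr1 with no change of sign ran from -2.08 to -0.78 with Senexin B in wild-type lines (-0.78 without the DMSO library of line 4), from 0.56 (without Cdk8 Δ/Δ line 1) to 1.62 by genotype with Senexin B and, for the interaction, from 0.82 (without the wild-type DMSO library of line 4) to 2.58 (without the Cdk8 Δ/Δ DMSO library of line 1).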
